A study of Mus musculus with 17 samples.

Results

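Toll-like receptors, the co-receptor Cd14 and the adaptors that link them to signalling were followed in RNA of mouse cortical microvessels. The set held Tlr1, Tlr2, Tlr3, Tlr4, Tlr7, Tlr9, Tlr13, Cd14, Myd88 and Ticam1. These were 10 of the 42687 genes in the count table, each matched to 1 Ensembl ID by its symbol. Mice aged 10 to 11 months were either APP/PS1 transgenic, a model of the amyloid deposits of Alzheimer's disease, or wild type (WT). Every mouse, controls included, received intraperitoneal peptide at 10 mg/kg every 2 days for 2 weeks. The peptide was gp91-ds-tat, which blocks the superoxide-producing NADPH oxidase NOX2, or the control sgp91-ds-tat, and the sample labels NOX2 and SC were read as these. Wild-type mice gave 5 libraries after control peptide, called WT_SC, and 5 after inhibitor, called WT_NOX2. APP/PS1 mice gave 2 after control peptide, called APP_SC, and 5 after inhibitor, called APP_NOX2. There was no group without peptide.

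The labels do not name the transgenic line, its promoter, the sex of the mice or whether each library is a separate animal, so p-values measure the spread between these libraries, which may be technical. The extraction text speaks of the cortex on the side of a surgery and names no surgery.

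Toll-like receptors are membrane proteins that bind conserved molecules of microbes and molecules released by damaged cells. TLR1, TLR2 and TLR4 act at the cell surface, TLR3, TLR7, TLR9 and TLR13 bind nucleic acids in endosomes, and CD14 hands lipopolysaccharide and lipopeptides to the surface receptors. MYD88 carries the signal of nearly all of these receptors, TICAM1 (TRIF) carries that of TLR3 and part of that of TLR4, and both lead to NF-kappaB and interferon regulatory factors. In brain, microglia and macrophages of the vessel border hold most of these receptors, while TLR3 and TLR4 are also known in endothelium and astrocytes.

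Tlr1 lies on chromosome 5 at 64924679 to 64933563, Tlr13 on chromosome X at 106143204 to 106160493, Tlr2 on chromosome 3 at 83836272 to 83841767 and Myd88 on chromosome 9 at 119335934 to 119341411 (GENCODE vM21, GRCm38). The sequences upstream of their starts are shown because Tlr1, Tlr13 and Tlr2 had the 3 highest log2 changes by genotype and Myd88 the lowest. RefSeq (GRCm38.p6) windows reaching 250 bases upstream of a start were taken for 7 members, with no entry for Tlr4 and Tlr7, and Cd14 was left out of this search. The RefSeq starts used for Tlr1, Tlr13, Tlr2 and Myd88 lie inside their GENCODE spans. The printed windows of Tlr1, Tlr13 and Tlr2 end at the edge of the span. That of Myd88 lies within the span, so it is not upstream of the whole gene. Each line below runs 5′ to 3′ on the gene's strand from the far end of the window to the last base before an annotated exon. Capitals mark a match to a searched motif.
Tlr1 (chr5:64933564-64933808, minus strand): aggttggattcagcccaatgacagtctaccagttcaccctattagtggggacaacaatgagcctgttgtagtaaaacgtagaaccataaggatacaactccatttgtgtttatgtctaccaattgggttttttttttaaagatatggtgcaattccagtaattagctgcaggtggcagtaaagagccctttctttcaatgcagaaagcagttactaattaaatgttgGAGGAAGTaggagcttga
Tlr13 (chrX:106143025-106143203, plus strand): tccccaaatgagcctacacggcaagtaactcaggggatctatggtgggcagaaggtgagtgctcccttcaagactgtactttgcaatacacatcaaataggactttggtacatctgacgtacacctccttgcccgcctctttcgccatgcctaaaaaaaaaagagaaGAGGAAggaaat
Tlr2 (chr3:83841768-83841858, minus strand): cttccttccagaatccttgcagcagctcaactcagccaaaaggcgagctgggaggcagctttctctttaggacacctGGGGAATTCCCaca
Myd88 (chr9:119340042-119340268, minus strand): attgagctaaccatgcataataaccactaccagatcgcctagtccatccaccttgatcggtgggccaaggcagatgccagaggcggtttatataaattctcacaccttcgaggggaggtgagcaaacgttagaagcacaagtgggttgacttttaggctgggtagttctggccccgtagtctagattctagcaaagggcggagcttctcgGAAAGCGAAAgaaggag

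Of 4 motifs searched on both strands, the longer ETS sequence GAGGAAGT, a core bound by the myeloid factor PU.1, stood in Tlr1 alone of the 7 members, at -23 to -16 from the start, and in 2.44% of 32851 windows of 250 bases. The shorter ETS core GAGGAA, which the longer one contains, stood in 4 of the 7 (Tlr1, Tlr9, Tlr13 and Ticam1) and in 23.3% of all windows. In Tlr13 it lay at -83 to -78. The kappaB consensus stood in 2 of the 7 (Tlr2 and Tlr3) and in 7.25% of windows. Tlr2 held overlapping matches to it from -173 to -163. The core of the interferon-stimulated response element, GAAA and GAAA with any 2 bases between them, stood in Myd88 alone of the 7, at -40 to -31, and in 2.98% of windows. For Tlr1, Tlr13, Tlr2 and Myd88 these positions count from a RefSeq start inside the gene's GENCODE span, not from the edge of that span. A match describes letters and not binding.

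Libraries held 7316503 to 17862965 counts. In the check of genotype, Prnp, whose promoter drives the transgenes of a common APP/PS1 line, was higher in all 7 APP/PS1 libraries (681 to 1416 CPM, counts scaled to library size) than in all 10 WT libraries (301 to 554 CPM). Its log2 change was 1.33 ± 0.13 (SE; edgeR quasi-likelihood test, Benjamini-Hochberg adjusted p = 3.8e-06). App changed by 0.73 ± 0.13 (SE; edgeR adjusted p = 0.0063), and Cybb, which encodes the NOX2 protein itself, by 0.30 ± 0.21 (SE; edgeR adjusted p = 0.91). The labelled endothelial, pericyte and astrocyte fractions were present: 8 endothelial markers summed to 1997 to 3805 CPM per library, 6 pericyte markers to 949 to 1641 CPM and 6 astrocyte markers to 2839 to 4858 CPM. The 6 neuron markers summed to 2472 to 4157 CPM and 5 choroid plexus markers to 26.1 to 8039 CPM, so other tissue was present too. In WT_NOX2 replicate 2 the endothelial adhesion gene Sele reached 27.7 CPM against 0.0892 to 1.57 CPM in the other 16 libraries. Cd14 changes that rest on that library are given without it, and the Cd14 interaction with its range on leaving out 1 library. In such bulk RNA, more cells of a type and more RNA per cell cannot be told apart.

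All 10 genes passed the filter on low counts, and all 10 passed it also on the WT libraries alone. Levels between genes are compared as CPM per kilobase of exon. Tlr3, the receptor for double-stranded RNA, had the highest level at 5.23 ± 0.914 CPM per kb (SD, n = 17). Ticam1, its adaptor, followed at 3.55 ± 0.736 and Myd88 at 2.34 ± 0.426 CPM per kb (SD, n = 17). Tlr3 was above Ticam1 in 17 of 17 libraries, and Ticam1 was above Myd88 in 17 of 17. Below these came Tlr7 at 2.22, Cd14 at 1.78, Tlr4 at 1.49, Tlr2 at 1.25, Tlr13 at 0.999, Tlr9 at 0.787 and Tlr1 at 0.482 CPM per kb (means, n = 17). Between neighbours from Myd88 downward the difference of the means was smaller than the larger of their SDs, so these neighbours are not separated by the spread over libraries. Within a library, each was above the next in 10 (Myd88 over Tlr7) to 15 (Tlr9 over Tlr1) of 17 libraries. Genes further apart can be separated, since the lowest Myd88 level, 1.52 CPM per kb, was above the highest Tlr1 level, 0.894 CPM per kb. The lowest receptor, Tlr1, was counted 7 to 44 times in a library and Tlr3 176 to 610 times.

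**Figure D1:**
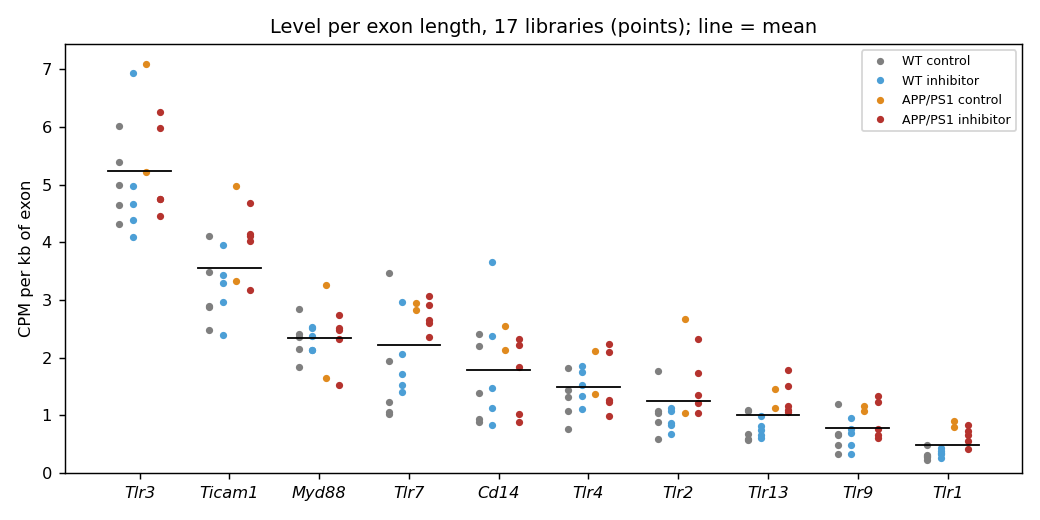
Level of each of the 10 genes as CPM per kilobase of exon (y axis), with 1 point per library coloured by group and a line at the mean of the 17 libraries. Tlr3 (mean 5.23) and Ticam1 (mean 3.55) stand above the others, and the points of neighbouring genes from Myd88 down to Tlr1 overlap.

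Genotype was compared over both peptides in a model with a term for peptide, 7 APP/PS1 against 10 WT libraries. Tlr1, which pairs with TLR2 to bind lipopeptides, rose in APP/PS1 microvessels, and it was the only member of the 10 to pass the test. Across all 18753 genes tested, 0.56% were called higher and 0.0267% lower. The log2 change was above 0 for 10 of 10 members, with a median of 0.46, against 50.7% of all genes and a median of 0.00. This direction did not hold in every alternative: 7 of the 10 were below 0 in a model with the level of microglia markers as a covariate, and on leaving out 1 library Myd88 turned in 7 and Cd14 in 3 of 17 fits. At an unadjusted p under 0.05, 6 of 10 members were higher, against 3.48% of all genes (6.38% in either direction). The members were chosen with earlier results of these data known, and several vary together over the libraries, so these shares are a description.

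Tlr1 stood at 0.982, 1.05, 0.913, 1.61 and 0.731 CPM in WT_SC and at 0.841, 1.10, 1.26, 1.43 and 1.16 CPM in WT_NOX2. In APP/PS1 it stood at 2.67 and 2.99 CPM in APP_SC and at 1.83, 2.80, 1.41, 2.18 and 2.46 CPM in APP_NOX2. Thus 6 of 7 APP/PS1 libraries lay above the highest WT library, the exception being APP_NOX2 replicate 3. The means were 2.33 ± 0.564 CPM in APP/PS1 (SD, n = 7) and 1.11 ± 0.268 CPM in WT (SD, n = 10). The log2 change was 1.10 ± 0.19 (SE; edgeR adjusted p = 0.0047), and leaving out any 1 library kept it between 1.03 and 1.17 with adjusted p between 0.0019 and 0.031. Of the 3332 different 50-base stretches in Tlr1 transcripts, 454 also occur in transcripts of its close relative Tlr6, so its counts depend on how the authors treated reads that match both. Tlr6 itself changed by 0.18 ± 0.17 on the log2 scale (SE; edgeR adjusted p = 0.95).

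Tlr13, the endosomal receptor for bacterial ribosomal RNA, had a similar pattern with more overlap. It stood at 4.62, 2.51, 2.44, 4.73 and 2.93 CPM in WT_SC and at 2.61, 3.24, 4.21, 2.86 and 3.49 CPM in WT_NOX2. It stood at 4.85 and 6.23 CPM in APP_SC and at 4.54, 6.49, 4.66, 4.98 and 7.69 CPM in APP_NOX2. Here 5 of 7 APP/PS1 libraries lay above the highest WT library. The log2 change was 0.73 ± 0.17 (SE), and it missed the threshold at edgeR adjusted p = 0.051. The same value passed in DESeq2's Wald test (0.73, adjusted p = 0.0094), in edgeR's robust fit (0.73, adjusted p = 0.048) and in edgeR with no filter on low counts (0.74, adjusted p = 0.044). Leaving out 1 library kept the change between 0.65 and 0.80, and it passed in only 4 of 17 fits. In a model with the level of microglia markers as a covariate, 0 members passed.

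Among the other surface receptors, Tlr2 stood at 1.78 to 5.35 CPM in WT (median 2.89) and at 3.14 to 8.06 CPM in APP/PS1 (median 4.08). Its 2 APP_SC libraries stood far apart, at 3.15 and 8.06 CPM, and 2 of 7 APP/PS1 libraries exceeded the highest WT library. The log2 change of Tlr2 was 0.77 ± 0.23 (SE; edgeR adjusted p = 0.24). Tlr4, the lipopolysaccharide receptor, stood at 4.26 to 10.3 CPM in WT (median 7.70) and at 5.53 to 12.5 CPM in APP/PS1 (median 7.57), and its log2 change was 0.20 ± 0.19 (SE; edgeR adjusted p = 0.96). Cd14, on chromosome 18, stood at 1.43 to 6.35 CPM in WT (median 2.48) and at 1.52 to 4.40 CPM in APP/PS1 (median 3.70). Its log2 change was 0.07 ± 0.30 (SE; edgeR adjusted p = 1), and 0.33 without WT_NOX2 replicate 2, which held the highest level. For Tlr4 3 of 7 APP/PS1 libraries lay above the highest WT library and the other 4 among the WT libraries, and for Cd14 0 of 7 lay above it. WT_NOX2 replicate 2 also held the highest WT level of Tlr4, and on leaving out any 1 library the Tlr4 change ran from 0.065 to 0.28.

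Among the endosomal receptors for nucleic acids, Tlr7, which binds single-stranded RNA, stood at 4.16 to 14.2 CPM in WT (median 6.62) and at 9.65 to 12.5 CPM in APP/PS1 (median 11.5). The APP/PS1 libraries lay in a narrow band above 8 of 10 WT libraries, while WT_SC replicate 1 was the highest of all. The log2 change of Tlr7 was 0.56 ± 0.21 (SE; edgeR adjusted p = 0.56). Tlr9, the receptor for unmethylated CpG DNA, stood at 1.12 to 4.16 CPM in WT (median 2.31) and at 2.08 to 4.67 CPM in APP/PS1 (median 3.74), and its change was 0.56 ± 0.25 on the log2 scale (SE; edgeR adjusted p = 0.71). Tlr3 stood at 21.3 to 36.1 CPM in WT (median 25.1) and at 23.2 to 37.0 CPM in APP/PS1 (median 27.2), and its change was 0.14 ± 0.12 on the log2 scale (SE; edgeR adjusted p = 0.94). The Tlr9 and Tlr3 levels of the genotypes overlapped. WT_NOX2 replicate 2 held the highest WT level of Tlr3, and on leaving out any 1 library the Tlr3 change ran from 0.055 to 0.24.

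Of the adaptors, Myd88 stood at 4.74 to 7.32 CPM in WT (median 6.08) and at 3.91 to 8.39 CPM in APP/PS1 (median 6.40), and both ends of the APP/PS1 range lay outside that of WT. Its log2 change was 0.01 ± 0.14 (SE; edgeR adjusted p = 1). Myd88 overlaps Acaa1a on the other strand, and 194 of its 2616 different 50-base stretches also occur in Acaa1a transcripts read on either strand. The kit was stranded but the counting is not stated to use strand, so reads of the pair may not have been told apart there. Acaa1a changed by -0.06 ± 0.10 on the log2 scale (SE; edgeR adjusted p = 0.99). Ticam1 stood at 7.14 to 12.3 CPM in WT (median 9.37) and at 9.52 to 14.9 CPM in APP/PS1 (median 12.3), with 3 of 7 APP/PS1 libraries above the highest WT library. The log2 change of Ticam1 was 0.35 ± 0.13 (SE; edgeR adjusted p = 0.50).

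**Figure D2:**
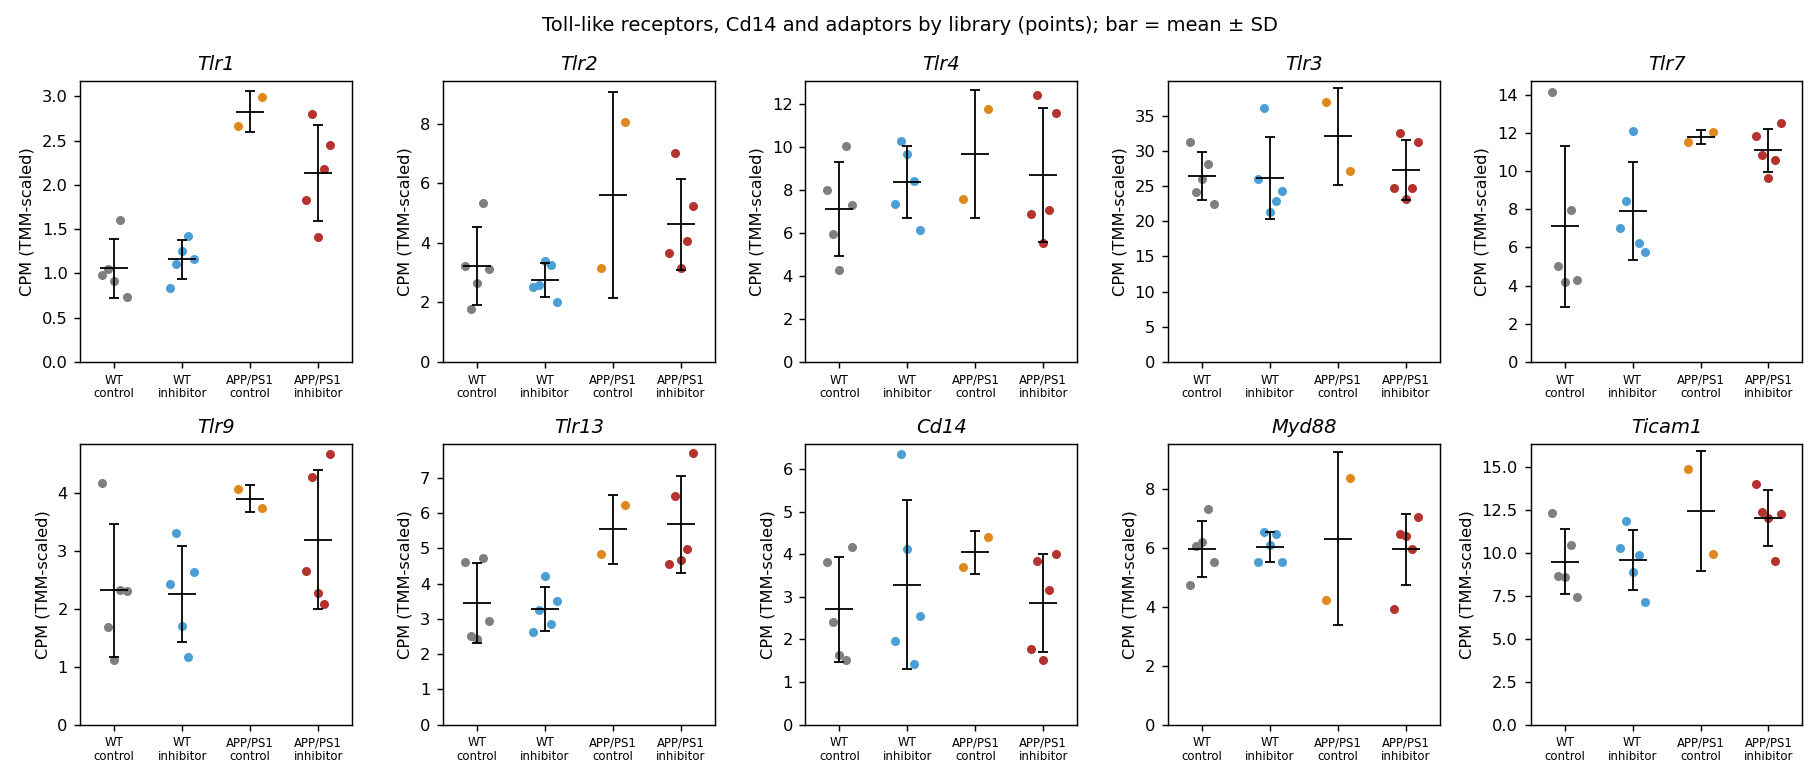
CPM of each gene (y axis, from 0) by group (x axis), with 1 point per library and the mean ± SD as bars. Tlr1 lies at 2.67 and 2.99 in APP_SC and at 1.41 to 2.80 in APP_NOX2, against 0.731 to 1.61 in the WT libraries, while the Myd88 and Cd14 points of the 4 groups overlap.

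Each peptide was then taken alone. With control peptide, 2 APP_SC against 5 WT_SC libraries, 0.0533% of all genes were called higher and 0 of 10 members were called. The log2 change of Tlr1 was 1.40 ± 0.30 (SE; edgeR adjusted p = 0.12), and that of Tlr13 was 0.65 ± 0.28 (SE; edgeR adjusted p = 1). Both APP_SC libraries lay above all 5 WT_SC libraries for Tlr1 and Tlr13, as they did in 3.6% of all genes. Without WT_SC replicate 4, the highest WT library for Tlr1, the Tlr1 change was 1.60 and passed (edgeR adjusted p = 0.042). The change of Tlr2 was 0.76 ± 0.37 (SE), and it was -0.04 without APP_SC replicate 2.

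With inhibitor, 5 APP_NOX2 against 5 WT_NOX2 libraries, 0.176% of all genes were called higher, 0.00533% were called lower, and again 0 of 10 members were called. The log2 changes were 0.90 ± 0.24 for Tlr1 (SE; edgeR adjusted p = 0.36), 0.78 ± 0.22 for Tlr13 (SE; edgeR adjusted p = 0.41) and 0.77 ± 0.30 for Tlr2 (SE; edgeR adjusted p = 1). All 5 APP_NOX2 libraries lay above all 5 WT_NOX2 libraries for Tlr13, as in 0.629% of all genes, while for Tlr1 APP_NOX2 replicate 3 lay below WT_NOX2 replicate 4. For Cd14 the change was 0.56 ± 0.48 with control peptide and -0.24 ± 0.38 with inhibitor (SE), both at edgeR adjusted p = 1, and without WT_NOX2 replicate 2 the second was 0.16. At an unadjusted p under 0.05, 2 members were higher with control peptide (Tlr1 and Tlr13) against 3.97% of all genes in either direction, and 3 with inhibitor (Tlr1, Tlr13 and Tlr2) against 3.38%.

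The effect of the NOX2 inhibitor itself was not detectable in this set. In WT, in APP/PS1 and over both genotypes, edgeR called 0% of all genes and 0 of 10 members, and the interaction, the inhibitor effect in APP/PS1 minus that in WT, likewise called 0. At an unadjusted p under 0.05 edgeR gave 1.34% of all genes in WT, 1.8% in APP/PS1, 2.11% over both genotypes and 0.843% for the interaction, with 0 members in each, and DESeq2 also called 0 genes. The members' log2 changes ran from -0.25 to 0.31 in WT and from -0.49 to 0.04 in APP/PS1. For Tlr1 the inhibitor change was 0.11 ± 0.26 in WT and -0.39 ± 0.29 in APP/PS1, and the interaction was -0.51 ± 0.39 (SE; edgeR adjusted p = 1 for each). Tlr2 changed by -0.25 ± 0.31 in WT and -0.25 ± 0.37 in APP/PS1 (SE), with an interaction of 0.00 (edgeR adjusted p = 1 for each). No SE is given for that interaction, since the way SEs were obtained is unreliable for a change so near 0. None of the Tlr1 and Tlr2 values that have an SE reached 2 SE, so changes of this size were not detectable with these libraries. Without APP_SC replicate 2 the Tlr2 change in APP/PS1 was 0.56. For Cd14 the change was 0.31 ± 0.38 in WT and -0.49 ± 0.48 in APP/PS1, with an interaction of -0.79 ± 0.61 (SE; edgeR adjusted p = 1 for each). Without WT_NOX2 replicate 2 the Cd14 change in WT was -0.10. On leaving out any 1 library the Cd14 interaction ran from -0.98 to -0.39.

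The wider pathway was taken from lists of ligands, partners, signalling proteins, inhibitors and target genes, again for genotype over both peptides, against 0.587% of all genes called in either direction. Among the co-receptors and chaperones, 2 of 8 tested genes were called higher and 0 lower. Both belong to a single receptor complex: CD180 (RP105), a receptor of the Toll-like family without the signalling domain, and LY86 (MD-1), the secreted partner that it needs at the cell surface. Cd180 stood at 1.97 to 7.01 CPM in WT (median 4.05) and at 6.83 to 10.8 CPM in APP/PS1 (median 8.78), and its log2 change was 1.09 ± 0.18 (SE; edgeR adjusted p = 0.0028). Ly86 stood at 2.10 to 5.08 CPM in WT (median 3.67) and at 5.71 to 9.66 CPM in APP/PS1 (median 8.14). All 7 APP/PS1 libraries lay above all 10 WT libraries for Ly86, as in 0.267% of all genes, while the reverse held in 0.00533%. Its log2 change was 1.08 ± 0.16 (SE; edgeR adjusted p = 0.00085), and with inhibitor alone it was 1.19 ± 0.20 (SE; edgeR adjusted p = 0.014). That within-inhibitor call was lost without WT_NOX2 replicate 5 (1.06, edgeR adjusted p = 0.056), without APP_NOX2 replicate 2 (1.06, edgeR adjusted p = 0.054) and in a fit of the 2 groups alone (1.19, edgeR adjusted p = 0.052).

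Cd180 lies in a gene region that Mast4 covers on the other strand. Of the 4551 different 50-base stretches in Cd180 transcripts, 138 also occur in Mast4 transcripts read on either strand. Reads of that part cannot be told apart without strand, and Mast4 changed by 0.09 ± 0.06 (SE; edgeR adjusted p = 0.91). Unc93b1, the chaperone that takes the endosomal receptors to endosomes, changed by 0.36 ± 0.14 (SE; edgeR adjusted p = 0.61).

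Of the 5 other Toll-like receptors, 4 were tested and 0 called, among them Tlr8 at -0.29 ± 0.24, Tlr5 at 0.28 ± 0.24 and Tlr6 at 0.18 ± 0.17 (log2 change ± SE). Tlr11 did not pass the filter. Of 7 endogenous ligands 0 were called. They included the matrix proteins Tnc (0.29 ± 0.17) and Vcan (0.13 ± 0.10) and the nuclear alarmin Hmgb1 (0.12 ± 0.12). Of 23 adaptors, kinases and transcription factors of the pathway 0 were called, with changes from -0.18 to 0.58. The highest, Irf5, a factor activated through MYD88, was at 0.58 ± 0.14 (SE; edgeR adjusted p = 0.083). Irak2, a kinase of the MYD88 complex, was at 0.37 ± 0.12 and Pik3ap1 (BCAP), a link to PI3-kinase, at 0.53 ± 0.18 (SE). Of 10 inhibitors of the pathway 0 were called, with 2 above and 8 below a change of 0. They included the RNase Zc3h12a (0.23 ± 0.14), the ubiquitin-editing enzyme Tnfaip3 (-0.22 ± 0.16) and its partner Tnip1 (-0.10 ± 0.11).

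Of 22 target genes 12 were tested and 1 was called, the chemokine Ccl3 (MIP-1alpha). Ccl3 was at 1 to 9 counts in the WT libraries (0.0934 to 0.535 CPM) and at 3 to 29 counts in APP/PS1 (0.325 to 2.37 CPM), with 6 of 7 APP/PS1 libraries above all WT libraries. Its log2 change was 2.36 ± 0.36 (SE; edgeR adjusted p = 0.0013). The floor of 3 counts in a library corresponds to 0.173 to 0.389 CPM, so several WT levels lay at or under it and the size of the change is uncertain. With inhibitor alone it was 2.47 ± 0.49 (SE; edgeR adjusted p = 0.043), a call lost on leaving out any of 11 of the 17 libraries, with adjusted p from 0.0036 to 0.19 over these fits. The acute-phase gene Lcn2 reached 113 CPM in a WT library and at most 5.21 CPM in APP/PS1, and its change was -2.89 ± 0.80 (SE; edgeR adjusted p = 0.17). Sele was at -3.59 ± 1.11 (SE; edgeR adjusted p = 0.30), and its level was far higher in WT_NOX2 replicate 2 than in any other library, as given above. Its change without that library was not obtained, since Sele then did not pass the filter on low counts. It also did not pass without WT_SC replicate 5.

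**Figure D3:**
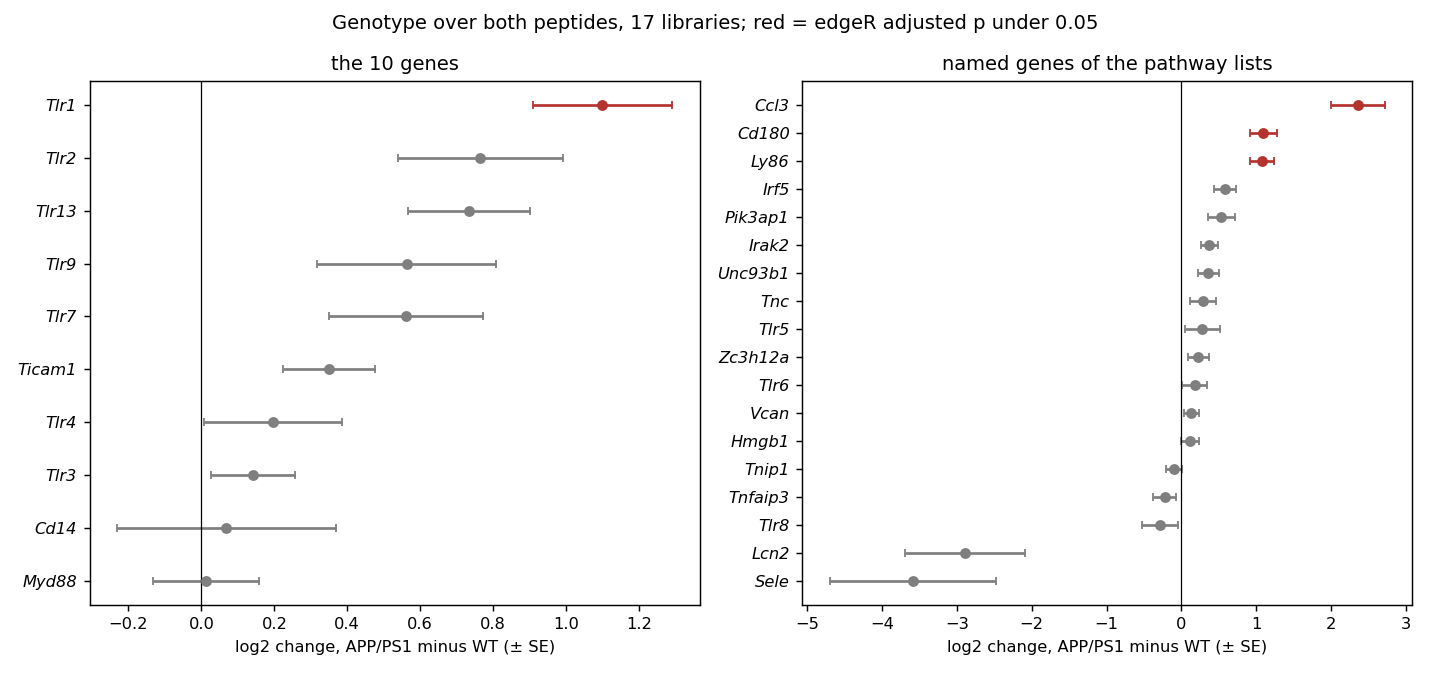
Log2 change, APP/PS1 minus WT over both peptides in 17 libraries, as point ± SE, for the 10 genes (left) and the named genes of the pathway lists (right, wider axis). Red marks an edgeR adjusted p under 0.05: Tlr1 (1.10), Ccl3 (2.36), Cd180 (1.09) and Ly86 (1.08).

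Microglia markers moved with genotype as well. Of 10 microglia markers, such as P2ry12 and Csf1r, 5 were called higher and 0 lower, with a median log2 change of 0.66. Their summed level was 238 to 315 CPM in WT and 299 to 488 CPM in APP/PS1, and no marker was at 0 in any library. Of 10 markers of plaque-associated microglia 8 were called higher, at summed levels of 116 to 175 CPM in WT and 160 to 264 CPM in APP/PS1. Perivascular macrophage markers gave 0 calls of 8, at 107 to 221 CPM in WT and 116 to 218 CPM in APP/PS1, and endothelial markers gave 0 of 8. Neutrophil markers summed to 9.60 to 29.3 CPM in WT, highest in WT_NOX2 replicate 2, and to 23.0 to 38.2 CPM in APP/PS1. There was 1 call among 7 tested of 12, the receptor Csf3r, with 5 changes above 0 and 2 below. Csf3r made up most of the sum, at 8.18 to 28.2 CPM over the 17 libraries. No other neutrophil marker exceeded 4.49 CPM, and Ly6g was at 0 in 15 libraries and Camp in 11. Whether neutrophil content differed by genotype was not tested beyond these markers.

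Relative to the microglia sum, Tlr1 came to 0.267% to 0.600% in WT (median 0.421%) and to 0.403% to 0.675% in APP/PS1 (median 0.597%), so the genotypes overlapped on that scale. In a model with the microglia marker level as a covariate, which itself differed by genotype, the Tlr1 change was 0.56 (edgeR adjusted p = 0.45) and 0 members were called. The changes of 7 of the 10 members were then below 0, from -0.086 for Tlr7 to -0.90 for Cd14. In that model Ly86 was at 0.41 (edgeR adjusted p = 0.43), Cd180 at 1.17 (edgeR adjusted p = 0.15) and Ccl3 at 1.66 (edgeR adjusted p = 0.21). Calls over all genes fell from 110 to 3, while genes at an unadjusted p under 0.05 rose from 1197 to 3122. Whether the microglia content accounts for the Tlr1, Cd180, Ly86 or Ccl3 change was not tested beyond this model, in which genotype and the marker level largely go together.

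**Figure D4:**
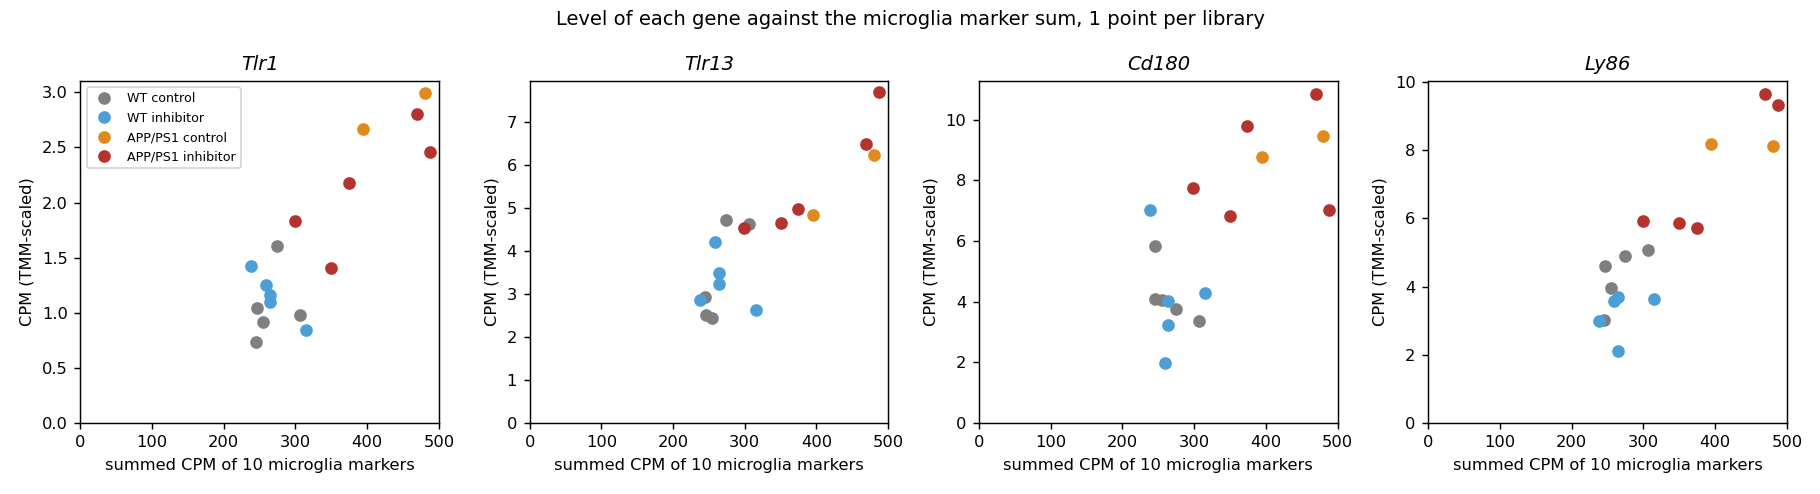
CPM of Tlr1, Tlr13, Cd180 and Ly86 (y axes, from 0) against the summed CPM of 10 microglia markers (x axis), with 1 point per library coloured by group. APP/PS1 libraries lie at 299 to 488 on the x axis and WT libraries at 238 to 315, so the groups hardly overlap on that axis.

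The genes most like each member were ranked by Pearson's r of log2 levels over the 17 libraries, which share genotype, depth and tissue makeup, as a description. Tlr1 was followed most closely by the protease gene St14 (r = 0.94), Ccl3 (0.91) and Tyrobp (0.90), the signalling partner of TREM2 in microglia. Tlr13 was followed by the complement receptor C3ar1 (0.91), the phagosome metal transporter Slc11a1 (0.91) and the hexokinase Hk2 (0.90). Tlr2 was followed by the interleukin-10 receptor Il10ra (0.91), Hk2 (0.87) and the leukocyte integrin Itgb2 (0.87). Among the genes nearest to Tlr7 were the complement gene C1qb (0.88) and Plekhf1 (0.86). The nearest genes of these 4 receptors thus include several that are known in microglia and macrophages.

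Tlr4 had other neighbours, the transcription factor genes Foxf1 (r = 0.88) and Foxc1 (0.87), known in vessel and mural cells, and the receptor Il13ra1 (0.87). Tlr3 was nearest to Gatad1 (0.90), Gm9800 (0.90) and Igfbp5 (0.89), and Ticam1 to Cbfa2t3 (0.90), Smap2 (0.90) and Klf7 (0.89). Myd88 was nearest to 6330403L08Rik (0.86), Gng11 (0.85) and Mrpl10 (0.84), Tlr9 to Scoc (0.86), Fam20a (0.85) and Slc29a3 (0.85), and Cd14 to Igfbp6 (0.77), Hist2h3b (0.75) and Rgs2 (0.75). Between members, r was highest for Tlr1 with Tlr13 (0.83), Tlr7 with Tlr13 (0.82) and Tlr2 with Tlr13 (0.81), and lowest for Myd88 with Ticam1 (-0.31).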

How the data were processed

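RNA was sequenced from cortical microvessels in 17 libraries, collected by centrifugation through dextran and made with a stranded kit after depletion of ribosomal RNA, per the labels' protocols. The authors deposited raw counts per Ensembl gene. The submitters' processing notes name cutadapt, STAR, HTSeq and DESeq2, and the builds mm10 and GRCh37, without their roles. The annotation, the strand setting and the handling of multiply matching reads are not given in the sources used here. A further 20 columns matched no sample and were not used. Symbols and exon lengths came from GENCODE vM21 (42250 IDs matched, 437 did not). Library totals had a median of 11342154, and precision at low levels is limited by counting, with a floor of 3 counts. Of 136 pairs of libraries 0 held identical values, and pairs of the same group differed by a chi-square of 5.04 to 84.3 per degree of freedom.

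The deposited counts were tested with edgeR 4.0.16 in R 4.3.3 (filterByExpr with a minimum count of 10, TMM, quasi-likelihood F test, Benjamini-Hochberg over 18753 genes, threshold 0.05, two-sided, all 17 libraries). Additive terms gave genotype and peptide, and fitting each group its own mean gave the other contrasts. CPM were computed on TMM-scaled sizes. Log2 levels used a prior count of 2. Standard errors come from the log2 change and the F statistic, and are unreliable for a change very near 0. The test of genotype over both peptides was tried on simulated counts, and the other contrasts were not. Alternatives were DESeq2 1.42.0 size factors, DESeq2's Wald test, no filter on low counts, a robust fit, a microglia marker covariate, the 2 groups compared alone, and leaving out each library. Samples were grouped by genotype and treatment labels, and replicates are numbered in sample order. Of each pathway list the text names the genes called and, where fewer than 3 were, those of smallest p up to 3. For each member it names the 3 genes of highest correlation, of which 1 is not reported here. The members and lists were chosen with earlier results of these data known.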

Additional observations from a re-analysis of the deposited data

Results flagged for a closer look

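The 10 members, Cd180, Ly86 and Ccl3 were each checked in WT_SC, WT_NOX2 and APP_NOX2, with 5 libraries per group, which made 39 sets. APP_SC, with 2 libraries, was left out, and the sets share libraries. The gap between the highest or lowest library and its nearest neighbour was compared with the range of the set. Chance meets this in about 1 in 20 sets, or 1.95 of 39. The check picked out 1 value, Ccl3 in APP_NOX2 replicate 3, at 0.325 CPM against 1.83 to 2.37 CPM in the other 4 libraries of its group. That library also held the lowest Tlr1 level among the APP/PS1 libraries, 1.41 CPM.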

How the results depend on the processing

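Genotype over both peptides called 110 genes, 176 with DESeq2, 3 with the microglia covariate and 70 (without APP_SC replicate 2) to 125 on leaving out 1 library. Members called were 1, and 2 with no filter, with DESeq2 and with the robust fit, 0 with the covariate and 1 to 2 on leaving out 1 library. With control peptide 10 genes were called, 35 with DESeq2, 1 with the covariate and 4 to 17 without 1 library (members 0 to 1), moving over 1.5 times without WT_SC replicate 3 or 4 or either APP_SC library. With inhibitor 34 were called, 61 with DESeq2, 2 with the covariate and 15 to 38 without 1 library, moving over 1.5 times without WT_NOX2 replicate 1, 3 or 5 or APP_NOX2 replicate 2 or 4. Inhibitor comparisons and the interaction kept 0 calls in every alternative run. DESeq2 also called Irf5 (0.58, adjusted p = 0.031) and Lcn2 (-2.85, adjusted p = 0.040). Leaving out 1 library called Tlr13 in 4 of 17 fits, Irf5 and Pik3ap1 in 1 each and Lcn2 in 1.

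The microglia covariate turned the sign of these genotype changes over both peptides, where the cause was not tested: Tlr2 -0.14, Tlr3 -0.35, Tlr4 -0.75, Tlr7 -0.086, Tlr9 -0.65, Cd14 -0.90, Myd88 -0.44, Tlr5 -0.21, Tlr6 -0.42, Tnc -0.34, Vcan -0.019, Hmgb1 -0.27, Unc93b1 -0.27, Irf5 -0.13, Pik3ap1 -0.042 and Zc3h12a -0.055. It also turned, with control peptide, Tlr13 (-0.21), Tlr2 (-0.34) and Cd14 (-0.41), with inhibitor Tlr2 (-0.094), and the inhibitor change of Tlr2 in APP/PS1 (0.021). DESeq2 gave the Tlr2 interaction as -0.0031. Leaving out 1 library turned the sign of these values, none of them called, with the ranges given: Cd14 over both peptides -0.050 to 0.33, with inhibitor -0.40 to 0.16 and inhibitor in WT -0.10 to 0.49, Myd88 -0.13 to 0.12, and for Tlr2 with control peptide -0.044 to 1.31, inhibitor in APP/PS1 -0.79 to 0.56, inhibitor in WT -0.40 to 0.0013 and interaction -0.54 to 0.81. Sele had no fit without WT_NOX2 replicate 2 or WT_SC replicate 5, where it did not pass the filter on low counts. No paired analysis was possible because replicate numbers follow sample order and pair no libraries. Where APP_SC is left with 1 library, its spread is assumed to equal that of the other groups.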
